A study of Mus musculus with 4 samples.

Results

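The Id and E protein genes were read in 4 RNA libraries of natural killer (NK) cells sorted from mouse liver. They comprised 3 inhibitor genes, Id1, Id2 and Id3, and 3 genes of the E proteins, Tcf3 (E2A), Tcf4 (E2-2) and Tcf12 (HEB). These 6 genes were picked by symbol out of 21025 gene rows, and all 6 had a row. The accessions in the rows showed that Tcf3 and Tcf4 were the E protein genes and not the similarly named Tcf7l1 and Tcf7l2.

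Both subsets came from C57BL/6 livers, with no treatment stated, and were TCRb-, NK1.1+ and NKp46+. TRAIL+ cells (2 libraries) were TRAIL+ and CD49b-, and CD49b+ cells (2 libraries) were TRAIL- and CD49b+. The age of the mice, and whether the libraries came from separate mice, are not given in the labels, so the tests below rest on a spread between libraries that may be technical. Levels are RPKM, in which reads are divided by the length of the gene and by the total of the library, and the steps of the values gave 3786497 to 4232967 reads per library. The NK gate genes were abundant in every library: Ncr1 (NKp46) had 978 and 1106 RPKM in TRAIL+ and 1011 and 1114 RPKM in CD49b+ libraries.

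E proteins are basic helix-loop-helix transcription factors that bind DNA as dimers at E-boxes, short sites of the form CANNTG. Id proteins have the helix-loop-helix but lack the basic region that contacts DNA, so a dimer of an Id protein with an E protein does not bind. In lymphocytes E proteins drive B and T cell development, and Id2 is needed for the development of NK cells and other innate lymphoid cells, so the level of Id proteins relative to E proteins is a known axis of lineage choice.

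The windows around the annotated starts of Id3, Id2, Tcf3 and Tcf12 are shown to place the E-boxes near them. Each is the RefSeq window of 250 bases before and 50 bases from the start in GRCm38.p6 (the authors aligned to the older mm9), 5′ to 3′ on the gene's strand with every CANNTG in capitals. Id3 lies at chr4:136143572-136143871 on the plus strand. Id2 lies at chr12:25096043-25096342, Tcf3 at chr10:80433586-80433885 and Tcf12 at chr9:72111770-72112069, all on the minus strand.
Id3: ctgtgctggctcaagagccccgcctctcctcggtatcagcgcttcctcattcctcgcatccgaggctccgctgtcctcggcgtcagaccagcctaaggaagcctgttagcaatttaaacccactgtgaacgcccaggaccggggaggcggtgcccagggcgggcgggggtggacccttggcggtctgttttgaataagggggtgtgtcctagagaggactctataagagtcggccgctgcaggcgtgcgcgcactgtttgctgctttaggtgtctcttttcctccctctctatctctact
Id2: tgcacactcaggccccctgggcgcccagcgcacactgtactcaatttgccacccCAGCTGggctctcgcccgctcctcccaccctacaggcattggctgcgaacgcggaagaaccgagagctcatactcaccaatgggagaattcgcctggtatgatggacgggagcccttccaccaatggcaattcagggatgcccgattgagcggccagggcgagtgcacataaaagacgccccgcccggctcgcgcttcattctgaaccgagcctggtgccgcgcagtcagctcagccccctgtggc
Tcf3: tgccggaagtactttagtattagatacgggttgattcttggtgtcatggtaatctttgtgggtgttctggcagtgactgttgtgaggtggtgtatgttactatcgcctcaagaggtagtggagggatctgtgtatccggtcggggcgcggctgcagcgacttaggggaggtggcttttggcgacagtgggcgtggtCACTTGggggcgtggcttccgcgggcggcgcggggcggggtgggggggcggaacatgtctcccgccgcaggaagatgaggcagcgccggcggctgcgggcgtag
Tcf12: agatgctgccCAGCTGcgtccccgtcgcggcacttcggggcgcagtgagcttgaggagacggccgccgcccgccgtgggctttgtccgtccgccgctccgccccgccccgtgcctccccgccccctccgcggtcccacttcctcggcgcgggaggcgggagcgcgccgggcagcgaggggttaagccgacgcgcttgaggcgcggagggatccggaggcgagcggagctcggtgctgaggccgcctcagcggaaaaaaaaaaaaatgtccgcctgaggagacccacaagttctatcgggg

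The Id3 window held 0 matches to CANNTG, and the printed windows of Id2, Tcf3 and Tcf12 held 1 each. CANNTG reads the same form on both strands, and 72.3% of 32851 windows of this length held at least 1. The matches in Id2 (first base at -196 from the start) and Tcf12 (at -240) were CAGCTG, a form E proteins are known to bind, which 16.3% of windows held. The form CAGGTG, searched on both strands, was in none of these 4 windows and in 20.2% of all windows. Tcf12 has 3 annotated starts. The window of the second held 2 matches to CANNTG and that of the third held 1, and neither held CAGCTG. The Tcf12 row in the files holds 1 accession. The values below are 1 level per library for the whole row, and do not say which start was used. A match of letters is a description and shows no binding.

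Of the 6 genes, Id2 was by far the most abundant in both subsets, and Id3 was the one whose level differed past the test. Id3 RNA was 12.0-fold higher in TRAIL+ cells. Among the E proteins, Tcf12 was the most abundant in TRAIL+ libraries, whereas Tcf3 was slightly above Tcf12 in CD49b+ libraries. Id1 RNA was almost undetected in both subsets, so the Id transcripts of these cells were Id2 and, at a much lower level, Id3.

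Of the 6 genes, 5 reached 1 RPKM in at least 2 libraries and were tested among 10047 genes (limma on log2(RPKM + 1), Benjamini-Hochberg adjusted over all of them, threshold 0.05). Each of the 5 was above 1 RPKM in all 4 libraries. Of these, 1 was called, against 8.62% of all genes tested. It was higher in TRAIL+ cells (background 4.76%), and 0 were lower (3.86%), with 1 lower at an unadjusted p under 0.05 and 0 lower by limma voom on whole reads. The groups did not overlap in 4 of the 5, against 46.8% of all genes tested, with 2 higher in TRAIL+ cells (24.9%) and 2 lower (21.8%).

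**Figure D1:**
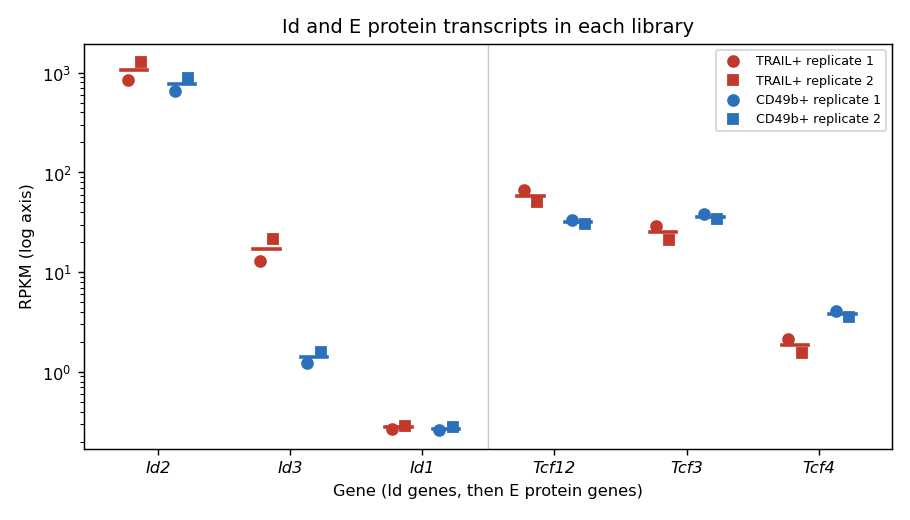
RPKM (log axis) of the 3 Id genes and 3 E protein genes in each library, with TRAIL+ in red left of CD49b+ in blue and bars at the group means. Id3 separates the subsets by a mean of 17.1 against 1.42 RPKM, Id2 overlaps between them, and Tcf12 and Tcf3 lie on opposite sides.

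Id2, the inhibitor on which NK cell development depends, had 848 and 1272 RPKM in TRAIL+ libraries, against 661 and 890 RPKM in CD49b+ libraries. The groups overlapped, since TRAIL+ replicate 1 lay under CD49b+ replicate 2. By mean level Id2 ranked 44th of the 10047 genes in TRAIL+ cells and 51st in CD49b+ cells. Its log2 fold change was 0.44 ± 0.30 (SE), with a 95% interval of -0.32 to 1.19 and an adjusted p of 0.546. That interval holds both no difference and a higher level in TRAIL+ cells, so the test does not show equal levels.

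Id3, an inhibitor induced by antigen receptor and TGF-beta family signals in lymphocytes, had 12.8 and 21.3 RPKM in TRAIL+ libraries, against 1.24 and 1.60 RPKM in CD49b+ libraries (means of 17.1 ± 5.96 and 1.42 ± 0.255, SD, n = 2 each). Both TRAIL+ libraries were above both CD49b+ libraries. In reads, this was 50 and 77 in TRAIL+ against 5 and 6 in CD49b+ libraries, and the ratio per total reads was 12.0 (exact 95% interval for counting error, 6.48 to 24.6). The log2 fold change was 2.87 ± 0.29 (SE, adjusted p = 0.00441), and without any 1 library it stayed between 2.52 and 3.21 with adjusted p of at most 0.00982. The scale of log2(RPKM + 1) understates this change, and with a pseudocount of 0.1 it was 3.47.

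Id1, an inhibitor prominent in endothelial and stromal cells, had 1 read in each of the 4 libraries. These stood for 0.269 and 0.289 RPKM in TRAIL+ and 0.259 and 0.278 RPKM in CD49b+ libraries. Per total reads the ratio was 1.04 (exact 95% interval for counting error, 0.0753 to 14.3), so a difference was not detectable at this depth. Id4, the remaining gene of the family, was at 0.295 and 0 RPKM in TRAIL+ and at 0 in both CD49b+ libraries. Neither was tested.

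Because Kupffer cells, endothelial cells and T cells express Id genes, their markers were read beside Id3. The 10 Kupffer cell markers summed to 23.6 and 16.9 RPKM in TRAIL+ libraries and 13.0 and 1.46 RPKM in CD49b+ libraries. Of the defining Kupffer genes, Clec4f had 0.92 and 1.32 RPKM in TRAIL+ against 0.20 and 0 in CD49b+ libraries, Timd4 had 0.11 and 0.36 against 0 and 0, and Marco was at 0 in all 4. The 2 most abundant, C1qa and C1qb, averaged 4.79 and 4.05 RPKM in TRAIL+ cells and 0.653 and 2.12 RPKM in CD49b+ cells, and 0 of 6 tested Kupffer markers passed (1 at an unadjusted p under 0.05, 0 by limma voom). C1qa, at an adjusted p of 0.0549, passed as higher in TRAIL+ cells when TRAIL+ replicate 1 (0.0468), TRAIL+ replicate 2 (0.0424) or CD49b+ replicate 1 (0.00811) was left out. C1qb passed when CD49b+ replicate 1 was left out (0.0252), and Cd5l when TRAIL+ replicate 1 was (0.0378). C1qc had 4.65 and 2.25 RPKM in TRAIL+ against 2.24 and 0.24 RPKM in CD49b+ libraries and did not overlap. The sum of the 10 markers was higher in both TRAIL+ libraries, but not each marker was. Vsig4 (1.02 and 0.37 RPKM in TRAIL+ against 0.49 and 0.35 RPKM in CD49b+ libraries), C1qb, Adgre1 and Csf1r overlapped between the subsets. The part of Kupffer cells in the Id3 difference was not tested.

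Of the 7 liver endothelial markers, Clec4g, Lyve1 and Tie1 were at 0 in every library, and the others apart from Pecam1, which leukocytes also express, were at or under 0.12 RPKM. The 7 hepatocyte markers summed to 18.9 and 4.38 RPKM in TRAIL+ and 22.7 and 1.37 RPKM in CD49b+ libraries, high in replicate 1 of both subsets, and Alb, the most abundant in both, averaged 7.29 RPKM in TRAIL+ and 7.84 RPKM in CD49b+ cells. The 6 T cell markers summed to 23.5 and 32.3 RPKM in TRAIL+ and 25.8 and 29.6 RPKM in CD49b+ libraries, of which Cd8a and Cd4 were higher in TRAIL+ cells, at means of 14.2 and 3.84 RPKM against 0.113 and 0.383 RPKM in CD49b+ cells. Cd28 was lower, at 7.50 and 10.2 RPKM in TRAIL+ against 22.9 and 29.0 RPKM in CD49b+ libraries, and did not pass without CD49b+ replicate 1 (adjusted p = 0.0580) or 2 (0.145). The T cell genes Cd5 and Cd6 did not exceed 0.59 and 0.73 RPKM in any library. Cd8b1 had 0 and 0.19 RPKM in TRAIL+ against 1.16 and 0.18 RPKM in CD49b+ libraries and was not tested. The list held no CD3 gene. Cd3e had 21.3 and 43.2 RPKM in TRAIL+ against 2.62 and 3.87 RPKM in CD49b+ libraries. Cd3g had 812 and 1060 RPKM in TRAIL+ against 6.65 and 11.1 RPKM in CD49b+ libraries. The part of T cells in the Id3 difference was not tested. In sorted bulk samples, fewer cells with a transcript and less RNA per cell cannot be told apart.

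Among the E protein genes, Tcf12 values were higher in TRAIL+ libraries and Tcf3 and Tcf4 values lower, but 0 of the 3 passed the test (2 at an unadjusted p under 0.05, 0 by limma voom). Tcf12 (HEB) had 66.5 and 50.9 RPKM in TRAIL+ libraries, against 33.4 and 30.5 RPKM in CD49b+ libraries. Both TRAIL+ values were above both CD49b+ values, a ratio of means of 1.84. The log2 fold change was 0.85 ± 0.19 (SE), with a 95% interval of 0.37 to 1.33 before adjustment and an adjusted p of 0.0587, just over the threshold. With the trend on gene length removed from each library, the adjusted p was 0.00865. It was 0.0470 without TRAIL+ replicate 1, 0.0108 without TRAIL+ replicate 2, and 0.328 and 0.437 when CD49b+ replicate 1 or 2 was left out.

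Tcf3, the E2A gene, had 29.2 and 20.8 RPKM in TRAIL+ libraries, against 38.1 and 33.9 RPKM in CD49b+ libraries. Both TRAIL+ values were below both CD49b+ values. The log2 fold change was -0.53 ± 0.21 (SE), with a 95% interval of -1.06 to 0.01 and an adjusted p of 0.258 (0.0334 without TRAIL+ replicate 1). The row pools 8 accessions, so the splice forms of E2A that differ in the basic helix-loop-helix exon could not be told apart.

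Tcf4, the E2-2 gene, which is known for driving plasmacytoid dendritic cells, had 2.14 and 1.54 RPKM in TRAIL+ libraries, against 4.11 and 3.53 RPKM in CD49b+ libraries. The values did not overlap, and they rested on 67 and 45 reads in TRAIL+ and 134 and 107 reads in CD49b+ libraries. The log2 fold change was -0.77 ± 0.23 (SE) with an adjusted p of 0.135. Of the 6 markers of plasmacytoid dendritic cells, Siglech had 0.31 and 0 RPKM in TRAIL+ and 1.77 and 0 RPKM in CD49b+ libraries. The 2 most abundant were Bst2, which many leukocytes express, at 80.0 and 42.3 RPKM and Cox6a2 at 9.65 and 7.37 RPKM, means of TRAIL+ and of CD49b+ cells, and neither passed. Bst2, at an adjusted p of 0.0576, passed as higher in TRAIL+ cells with the gene length trend removed (0.0235), with quantile normalization and when TRAIL+ replicate 1 was left out (0.0153). Pacsin1 was higher in TRAIL+ cells, at 6.20 and 4.07 RPKM against 0.11 and 0.06 RPKM in CD49b+ libraries (adjusted p = 0.00523).

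The 6 B cell markers summed to 22.1 and 15.7 RPKM in TRAIL+ and 23.3 and 12.3 RPKM in CD49b+ libraries. Of these, Cd79b had 11.4 and 11.0 RPKM in TRAIL+ and 8.44 and 5.91 RPKM in CD49b+ libraries, and Cd79a 5.53 and 2.58 RPKM in TRAIL+ and 7.45 and 4.96 RPKM in CD49b+ libraries. Of the B cell markers tested, 0 of 3 passed (1 at an unadjusted p under 0.05, 0 by limma voom). The part of these cells in the Tcf3 and Tcf4 values was not tested.

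The makeup of the E protein RNA was close between the replicates of a subset and lay apart between the subsets. Tcf12 made up 68.0% and 69.5% of the summed RPKM of the 3 E protein genes in TRAIL+ libraries, against 44.2% and 44.9% in CD49b+ libraries. Tcf3 made up 29.8% and 28.4% in TRAIL+ and 50.4% and 49.9% in CD49b+ libraries. The remaining share, from Tcf4, was 2.18% and 2.11% in TRAIL+ and 5.43% and 5.20% in CD49b+ libraries.

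**Figure D2:**
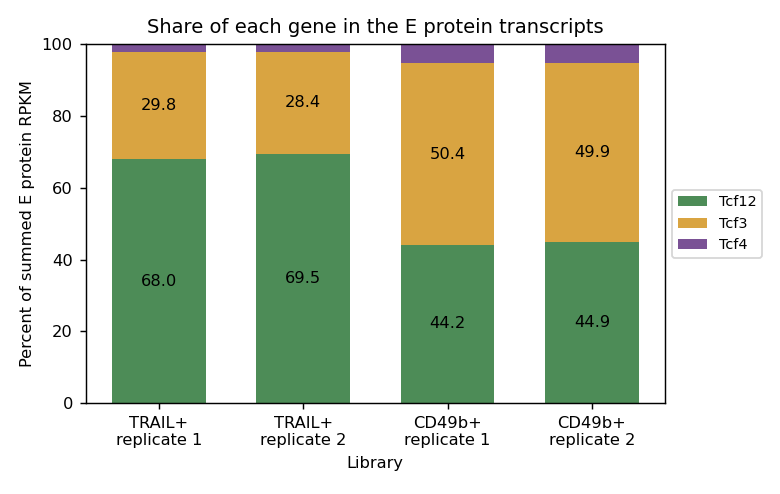
Percent of the summed RPKM of the 3 E protein genes that came from each gene, 1 bar per library. The Tcf12 share is 68.0% and 69.5% in the TRAIL+ libraries and 44.2% and 44.9% in the CD49b+ libraries.

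Tcf12 RNA was 2.28 and 2.45 times Tcf3 RNA within the TRAIL+ libraries, against 0.876 and 0.899 times within the CD49b+ libraries. The means were 2.36 ± 0.118 in TRAIL+ and 0.887 ± 0.0159 in CD49b+ libraries (SD, n = 2 each). Such a ratio is taken within a library and does not change when a library as a whole is rescaled. It is a description with no p, since the genes were chosen with results of these data known.

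The summed level did not separate the subsets in this way. Id1, Id2 and Id3 together came to 861 and 1293 RPKM in TRAIL+ libraries and 663 and 892 RPKM in CD49b+ libraries. The 3 E protein genes came to 97.9 and 73.2 RPKM in TRAIL+ libraries and 75.7 and 68.0 RPKM in CD49b+ libraries. Summed Id over summed E protein RPKM was therefore 8.80 and 17.7 in TRAIL+ libraries and 8.76 and 13.1 in CD49b+ libraries, ranges that overlap.

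Id2 supplied 98.5% and 98.3% of the Id RPKM in TRAIL+ libraries and 99.8% in both CD49b+ libraries. Id3 supplied 1.49% and 1.64% in TRAIL+ and 0.186% and 0.179% in CD49b+ libraries. Set against Tcf3 alone, Id3 RNA was 0.440 and 1.02 times its level in TRAIL+ libraries and 0.0324 and 0.0470 times in CD49b+ libraries. RNA levels do not give the amounts of the proteins, whose ratio decides how many E protein dimers are free.

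**Figure D3:**
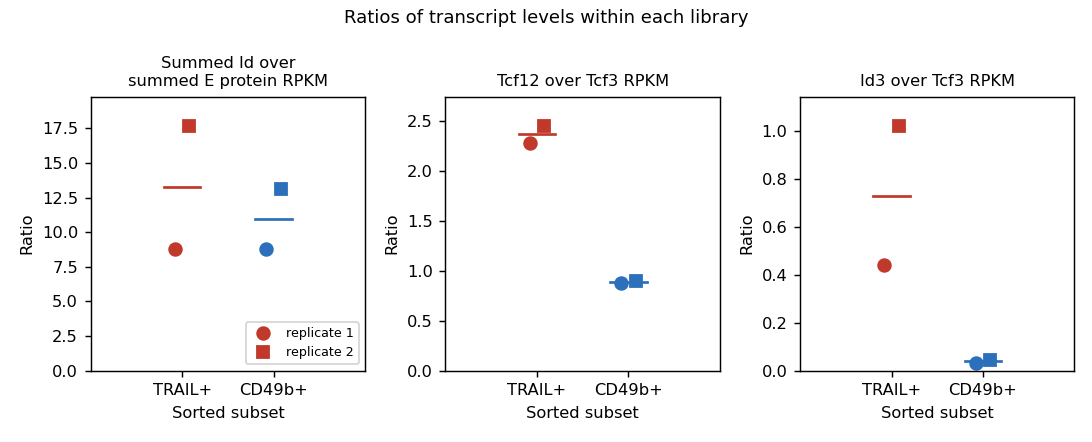
Ratios of RPKM within each library for the sum of the Id genes over the sum of the E protein genes, Tcf12 over Tcf3, and Id3 over Tcf3, with TRAIL+ left of CD49b+ and bars at the group means. The first overlaps between the subsets (8.80 and 17.7 against 8.76 and 13.1), and the other panels do not.

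By level per gene length, the order in TRAIL+ cells was Id2, Tcf12, Tcf3, Id3, Tcf4 and Id1, and in CD49b+ cells Id2, Tcf3, Tcf12, Tcf4, Id3 and Id1. In TRAIL+ libraries the neighbours Tcf3 (20.8 to 29.2 RPKM) and Id3 (12.8 to 21.3 RPKM) overlapped. In CD49b+ libraries Tcf3 and Tcf12 were close but did not overlap, at 36.0 ± 2.98 and 32.0 ± 2.08 RPKM (SD, n = 2). The other neighbours in each order did not overlap either.

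Of the genes reported to regulate Id genes, 3 of 14 tested were higher in TRAIL+ cells (4.76% of all genes tested) and 0 lower (3.86% of all genes tested, and also 0 lower at an unadjusted p under 0.05 and by limma voom), with a median log2 fold change of -0.02 beside 0.00499 over all genes tested. Tgfbr1, the type I TGF-beta receptor, had 38.2 and 40.5 RPKM in TRAIL+ and 10.3 and 12.8 RPKM in CD49b+ libraries (log2 fold change 1.69 ± 0.18, adjusted p = 0.00513). Tox, a nuclear factor needed for the development of NK and other innate lymphoid cells, had 90.4 and 73.5 RPKM in TRAIL+ and 20.3 and 26.2 RPKM in CD49b+ libraries (1.78 ± 0.20, adjusted p = 0.00627). Eng, the endoglin co-receptor of the BMP and TGF-beta family, had 2.47 and 3.09 RPKM in TRAIL+ and 0.13 and 0.28 RPKM in CD49b+ libraries, and it no longer passed when CD49b+ replicate 1 was left out (adjusted p = 0.0656, against 0.0145 with all 4).

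The Smad and Egr factors of the list did not pass with all 4 libraries. Smad1 and Smad5, which carry BMP signals to Id genes, averaged 7.57 and 7.40 RPKM in TRAIL+ cells and 7.28 and 7.83 RPKM in CD49b+ cells. Egr2, which acts upstream of Id3 in T cells, averaged 7.05 and 5.26 RPKM in TRAIL+ and CD49b+ cells (log2 fold change 0.41 ± 0.31, adjusted p = 0.596). Egr1, an immediate-early gene, had 48.5 and 13.6 RPKM in TRAIL+ and 69.3 and 32.3 RPKM in CD49b+ libraries, with replicate 1 above replicate 2 in both subsets. It passed as lower in TRAIL+ cells when TRAIL+ replicate 1 was left out (log2 fold change -1.73, adjusted p = 0.0274). Ets1, which supports Id2 expression in NK cells, and Tgfbr2 were the most abundant, at means of 347 and 107 RPKM in TRAIL+ and 362 and 79.2 RPKM in CD49b+ cells. Nfil3, named in the title of the study, averaged 48.8 ± 8.33 RPKM in TRAIL+ and 57.4 ± 5.96 RPKM in CD49b+ cells (SD, n = 2 each, adjusted p = 0.627).

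Of 7 genes known to control the stability of Id or E proteins, 6 were tested and Asb2 was called. It was called higher (4.76% of all genes tested), and 0 were lower (3.86%). Asb2 is a subunit of a ubiquitin ligase that has been reported to target E2A for degradation in lymphocytes. It had 165 and 147 RPKM in TRAIL+ libraries, against 3.32 and 4.33 RPKM in CD49b+ libraries, and was 40.7-fold higher (log2 fold change 5.03 ± 0.19, adjusted p = 0.000304). The enzymes that act on Id proteins did not pass: Usp1, which removes ubiquitin from Id proteins, averaged 25.7 and 29.6 RPKM in TRAIL+ and CD49b+ cells, and its partner Wdr48 11.1 and 10.9 RPKM. Cops5, a subunit of the COP9 signalosome and the most abundant of the list after Asb2, averaged 33.8 and 37.7 RPKM. The median log2 fold change of the 6 was -0.07.

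Of 14 tissue-restricted bHLH genes whose products pair with E proteins, 10 were at 0 in every library and 1 was tested. This was Lyl1, a bHLH factor of blood progenitors, with 6.53 and 6.00 RPKM in TRAIL+ and 0.79 and 0.14 RPKM in CD49b+ libraries. It was called higher (log2 fold change 2.35 ± 0.29, adjusted p = 0.00828), as were 4.76% of all genes tested. Twist2 had 0.19 and 0.80 RPKM in TRAIL+ libraries and 0 in both CD49b+ libraries.

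None of 7 tested coregulators of E proteins passed (median log2 fold change 0.00), also 0 at an unadjusted p under 0.05 and 0 by limma voom. The most abundant were Ldb1, an adaptor of LIM and bHLH factors, at 58.0 and 53.7 RPKM in TRAIL+ and CD49b+ cells, and Lmo4 at 32.1 and 33.7 RPKM. The histone acetyltransferase gene Ep300 varied more between replicates than between subsets, at 23.4 and 6.59 RPKM in TRAIL+ and 30.0 and 16.6 RPKM in CD49b+ libraries. It passed as lower in TRAIL+ cells when TRAIL+ replicate 1 was left out (log2 fold change -1.62, adjusted p = 0.0194).

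**Figure D4:**
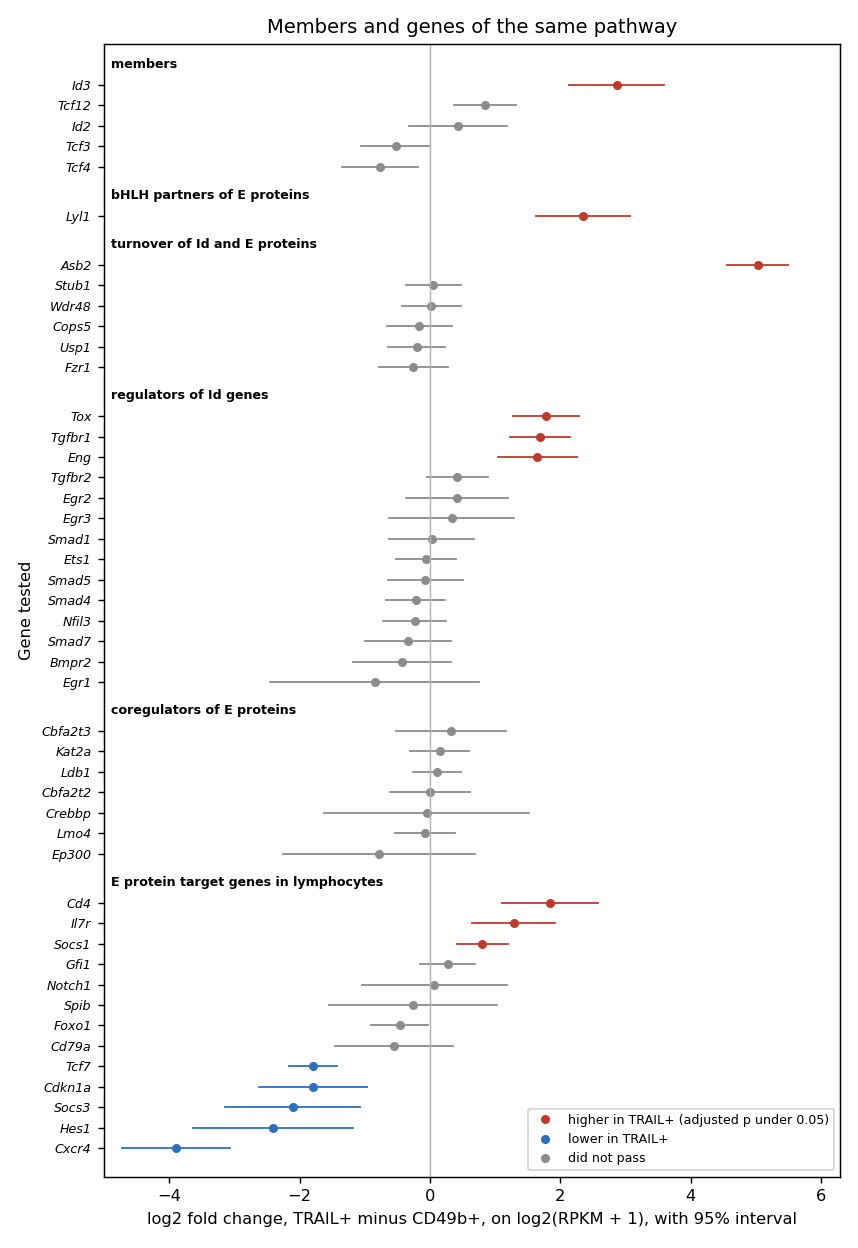
Log2 fold change (TRAIL+ minus CD49b+, on log2(RPKM + 1)) with its 95% interval for each tested gene of the 6 lists, red where higher in TRAIL+ cells, blue where lower and grey where the adjusted p did not pass. Id3 is the called member, and the E protein target list holds 3 red and 5 blue genes.

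Genes reported as E protein targets in lymphocytes moved both ways. Of 21 genes in the list, 13 were tested, 3 were higher in TRAIL+ cells, 5 were lower and 5 did not pass, against 4.76% higher and 3.86% lower of all genes tested, with a median log2 fold change of -0.47. Fewer of them were called when either CD49b+ library was left out, as was also so over all genes tested. With no minimum on RPKM, 2 of the list were higher and 2 lower. The early lymphocyte genes of the list, Rag1, Rag2 and Ptcra, had at most 0.04 RPKM in any library.

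Cxcr4, a chemokine receptor, had 6.63 and 3.05 RPKM in TRAIL+ libraries, against 73.2 and 91.1 RPKM in CD49b+ libraries (log2 fold change -3.89 ± 0.33, adjusted p = 0.00265). Tcf7, which encodes the T cell factor TCF-1, had 39.8 and 40.3 RPKM in TRAIL+ and 143 and 139 RPKM in CD49b+ libraries (-1.79 ± 0.15, adjusted p = 0.00248). Both passed whichever library was left out.

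Hes1, a transcriptional repressor that acts within the Notch pathway, had 4.73 and 1.27 RPKM in TRAIL+ and 23.5 and 14.0 RPKM in CD49b+ libraries. Socs3, an inhibitor of cytokine signals, had 21.2 and 9.21 RPKM in TRAIL+ and 79.0 and 51.6 RPKM in CD49b+ libraries. Their adjusted p was 0.0428 and 0.0371. Both calls were lost when CD49b+ replicate 1 was left out (log2 fold changes of -2.05 and -1.81) and with no minimum on RPKM. Hes1 also did not pass by limma voom on whole reads (adjusted p = 0.0519) or with a pseudocount of 0.1. Cdkn1a, the cell cycle inhibitor p21, had 4.11 and 1.82 RPKM in TRAIL+ and 13.6 and 10.9 RPKM in CD49b+ libraries (-1.80 ± 0.33, adjusted p = 0.0310), and the call was lost when CD49b+ replicate 1 (0.121) or 2 (0.0618) was left out.

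Il7r, the IL-7 receptor, had 25.6 and 32.6 RPKM in TRAIL+ and 9.10 and 13.9 RPKM in CD49b+ libraries, and Socs1, another inhibitor of cytokine signals, 98.4 and 107 RPKM in TRAIL+ and 55.9 and 60.6 RPKM in CD49b+ libraries. Their adjusted p was 0.0392 and 0.0360. Leaving out CD49b+ replicate 1 ended both calls (0.256 and 0.493), as did leaving out replicate 2 (0.0553 and 0.337). Cd4 was higher at 4.11 and 3.57 RPKM in TRAIL+ and 0.68 and 0.08 RPKM in CD49b+ libraries (1.84 ± 0.30, adjusted p = 0.0190, and 0.0648 with CD49b+ replicate 2 left out), and it is also counted above among the T cell markers. Foxo1, the forkhead factor, averaged 24.2 RPKM in TRAIL+ and 33.6 RPKM in CD49b+ cells and did not pass (adjusted p = 0.223).

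The genes whose pattern was most like that of each member were taken by the distance between mean-centred log2(RPKM + 1) values over the 4 libraries. For Id3 these were Fam241b, Cd3e (the epsilon chain of CD3) and Zmat4, at distances of 0.189 to 0.266. Cd3e had 21.3 and 43.2 RPKM in TRAIL+ and 2.62 and 3.87 RPKM in CD49b+ libraries, and Zmat4 3.99 and 6.88 RPKM in TRAIL+ and 0 in both CD49b+ libraries. For Tcf12 they included Irf5 and Fchsd2 (0.0301 and 0.0524), and for Tcf3 Otud1, Marchf7 and Phc1 (0.0471 to 0.0567). For Tcf4 they were Septin11, Galnt2 and Atp8b4 (0.0274 to 0.0612), and for Id2 Hagh, Eif4ebp1 and Calhm2 (0.0376 to 0.0617). A small distance says only that the values of these 4 libraries were alike in pattern.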

How the data were processed

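The deposited values are RPKM per gene row and library, scaled by the authors, per the file headers. The submitters' processing notes name TopHat 1.4.1 and mm9. For the counter, its filters and strand, details were not given in the sources used here, and antisense or overlapping genes cannot be told apart. Groups and replicate numbers came from sample titles.

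The members and gene lists were chosen with earlier results of these data known. Rows were named by RefSeq accession (20657 of 21025), otherwise by symbol or synonym. Low RPKM values move in whole steps. Library depth was the common divisor of the products of depth and gene length, and whole reads within a relative tolerance of 1e-06 were found for 100% of 13681 rows above 0, against 0 of 2000 rows drawn after random rescaling of the libraries. Reads of a row could be a whole multiple of those given. Summed over rows, the reads given came to 4091701 to 4581051 per library. This was above the depth in each library, and the cause was not tested. Intervals cover only the error of counting.

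The fit took genes at or above 1 RPKM in 2 or more libraries, using limma 3.58.1 in R 4.3.3 (log2(RPKM + 1), trended prior, subset as the term), with 2 residual degrees of freedom. An exact permutation of 2 against 2 libraries cannot go below p = 0.333 and was not used. On simulated reads of this comparison (9889 genes, 200 changed 4-fold) 100% of changed genes were recovered, with 31 false calls. The changed genes were drawn only from rows with more reads on average than Id3. Replicates were drawn independently with a fixed spread. The recovery therefore does not cover genes with as few reads as Id3, or changes smaller than 4-fold. Genes named are the members, Id4, Nfil3, up to 4 called genes a direction and the 2 most abundant of each list, up to 2 markers of each other cell type and the 3 nearest patterns, apart from 2 genes whose values are not reported here. Other genes were named after their values were seen. Levels were compared within the RPKM scale, and alternatives covered pseudocount, minimum, scaling, gene length, prior, voom, replicate block and each library left out. RefSeq protein sequences were not used here.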

Additional observations from a re-analysis of the deposited data

How the results depend on the processing

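Over 14 alternatives, Id3 stayed higher in TRAIL+ cells and past the threshold, with log2 fold changes of 2.52 to 3.47 and adjusted p of at most 0.0183, and Id2 stayed short of it (adjusted p of 0.118 to 1.000). Tcf12 (0.66 to 1.04 without 1 library) kept its direction and passed with the gene length trend removed (0.87, adjusted p = 0.00865) and without either TRAIL+ replicate. Tcf3 (-0.76 to -0.29 without 1 library) kept its direction and passed without TRAIL+ replicate 1. With a replicate block, Tcf12 (0.85, adjusted p = 0.00290), Tcf3 (-0.53, 0.0380) and Tcf4 (-0.77, 0.0424) passed. So did Ep300, Egr1, Bst2, the Kupffer markers C1qa and C1qc, and the hepatocyte marker Apoa1. With this block 1049 genes were higher and 833 lower, against 478 and 388. Over all genes tested, the difference between replicates 1 and 2 in TRAIL+ correlated with that in CD49b+ at 0.563, but the labels do not say that the numbers mark a shared mouse or day. Without 1 library, 245 to 777 genes were higher and 198 to 763 lower, the lone library being assumed to vary like the other group, and 588 were lower with the gene length trend removed. Summed Id over E protein RPKM was 0.214 in TRAIL+ and 0.0237 in CD49b+ libraries without Id2, and in whole reads, not scaled to length, 3.77 and 3.24. Without 1 library it was 8.80 to 17.7 in TRAIL+ and 8.76 to 13.1 in CD49b+ cells. The cause of these shifts was not tested. Depth limits Id1, which rests on 1 read per library, and the CD49b+ level of Id3, which rests on 11 reads.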

Other observations

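Within each subset the inhibitors and the E proteins differed between replicates in opposite directions. In replicate 2, Id2 was 1.50 times its level in replicate 1 in TRAIL+ cells and 1.35 times in CD49b+ cells, and Id3 1.66 and 1.29 times. Tcf3 was 0.713 and 0.889 times, Tcf4 0.722 and 0.859 times and Tcf12 0.765 and 0.912 times. The Id genes have short transcripts in the files (956 bases for Id3 and 1275 for Id2) and the E protein genes long ones (3567 for Tcf3, 4728 for Tcf12 and 7702 for Tcf4), and the part of transcript length in these values was not tested.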
